A study of Mus musculus with 16 samples.

Results

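Macrophages that carry much Cxcl9 RNA were examined in MC38 colon tumors of mice with and without the gene Aire. They were selected on their own RNA counts. A cell of the CD45+ tumor libraries was taken when it held at least 5 unique molecular identifiers (UMIs, 1 per captured RNA molecule) of C1qa, C1qb and C1qc together and at least 3 of Cxcl9. It also had to hold 0 UMIs of Cd3e, Cd3d and Cd3g, which mark T cells, and 0 of Ncr1 and Klrb1c, which mark natural killer (NK) cells. The rule found 568 cells of 9083 tumor CD45+ barcodes, and the whole series holds 37609. They are called Cxcl9-high macrophages here. Levels of the C1q genes and of Cxcl9 describe the selection and support nothing by themselves.

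Mice lacking Aire keep T cells that recognize self-antigens, and the study asked how such mice respond to blockade of the inhibitory receptor PD-1. Female littermates, Aire+/+ or Aire-/-, were 8 weeks old and carried subcutaneous MC38, a colon carcinoma line of C57BL/6 origin. Anti-PD1 (clone RMP1-14) or a rat IgG2a isotype antibody (clone 2A3) was injected 5 times, on day 0 and then on days 3, 7 and 10 and finally 14, each time at 5 mg/kg. Tumors of 4 to 6 mice per condition were pooled on day 19, sorted for CD45 and loaded as 1 library for each condition. The spread between mice could therefore not be measured, and no test between conditions was possible. Intervals in parentheses are 95% intervals that cover counting error only. Wherever 4 values follow each other, the Aire+/+ pair stands first and the Aire-/- pair second, and within each pair isotype precedes anti-PD1.

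Cxcl9 is a chemokine that macrophages and dendritic cells secrete when interferon-gamma reaches them, and it attracts T and NK cells that carry the receptor Cxcr3. C1q begins the classical complement cascade and is made in tumors mainly by macrophages. Interferon-gamma also induces guanylate-binding proteins, antigen presentation on MHC molecules and the T cell ligand PD-L1, so these genes are often seen together in activated macrophages.

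The 4 libraries held 2936, 2211, 1860 and 2076 barcodes with 38961020, 28780160, 24658741 and 23286592 UMIs. Requiring 200 genes and at most 20% mitochondrial UMIs, thresholds the study names, removed 6, 3, 4 and 1 barcodes and none of the Cxcl9-high macrophages. The number that passes in Aire-/- isotype is not the same in the study's own table. Library pairs shared between 3 and 14 barcode sequences, and no sequence was a Cxcl9-high macrophage in both libraries of a pair. Aire, the targeted gene, had 0 UMIs in Cxcl9-high macrophages of all 4 libraries, so it checks no genotype label here. Xist, transcribed from the inactive X chromosome of females, had 509, 555, 394 and 205 UMIs, and the Y-linked genes Ddx3y, Eif2s3y, Kdm5d and Uty had 0 in every library.

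Macrophage markers that the rule did not use were read next. All 12 macrophage markers were detected in every library, at a summed level of 10502, 11684, 10326 and 9537 CPM (counts per 1000000 UMIs of the cells, CPM), against 2092, 1104, 1253 and 249.3 CPM in barcodes with 3 or more Cd3 UMIs (Cd3 barcodes). Cells that met the rule except for Cxcl9, with 0 to 2 of its UMIs, held more, at 10978, 12234, 10613 and 10624 CPM. Of 11 macrophage markers tested against those cells, 1 was higher in all 4 libraries and 5 lower, with a median log2 ratio of -0.08. Their most abundant member was Apoe, a lipid-transport protein, in both Aire+/+ libraries and Lyz2, a lysozyme, in both Aire-/- libraries. Csf1r, the receptor for macrophage colony-stimulating factor, stood at 483, 491, 522 and 473 CPM. Cd68, a late endosomal protein of phagocytes, stood at 720.4, 727, 690.0 and 550.5 CPM. Adgre1, which encodes F4/80, stood at 158, 209, 133 and 113 CPM. Detection alone sets no cell type apart here, since all 10 monocyte markers were detected in every library too. The name of the cells follows the rule. At least 1 UMI of Lyz2 was found in 91.4%, 92.5%, 94.2% and 88.9% of the Cxcl9-high macrophages and in 19.6%, 10.97%, 14.8% and 6.81% of Cd3 barcodes, which were not cleared of doublets with macrophages. Median depth was 17076, 16169, 17161 and 12163 UMIs in the former and 9277, 7848, 9599 and 8448 in the latter.

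Cxcl9-high macrophages made up a larger share of all C1q-gated cells in Aire-/- tumors than in Aire+/+ tumors, and a larger share after anti-PD1 than after isotype. The gate without the Cxcl9 condition held 1164, 785, 543 and 203 cells, of which 175, 173, 139 and 81 were Cxcl9-high. The share was 15.03% (13.03 to 17.2) in Aire+/+ isotype, 22.04% (19.2 to 25.1) in Aire+/+ anti-PD1, 25.6% (21.98 to 29.5) in Aire-/- isotype and 39.9% (33.1 to 47.0) in Aire-/- anti-PD1 (exact Clopper-Pearson intervals). Aire-/- over Aire+/+ the ratio of shares was 1.70 (1.35 to 2.14) with isotype and 1.81 (1.37 to 2.37) with anti-PD1. Anti-PD1 over isotype it was 1.47 (1.18 to 1.82) in Aire+/+ and 1.56 (1.17 to 2.06) in Aire-/-. Each library enters 2 of these ratios, so they are not independent of each other. Of 1222, 817, 586 and 242 cells with at least 5 C1q UMIs, 54, 27, 41 and 35 held a Cd3 UMI and were left out. Of the 185, 179, 152 and 87 that also held 3 Cxcl9 UMIs or more, 7, 4, 12 and 6 were lost that way. Without the Cd3 and NK conditions the ratios were 1.71 and 1.64 between genotypes (isotype, anti-PD1). Between treatments they were then 1.45 and 1.39 (Aire+/+, Aire-/-). With every barcode thinned to 5000 UMIs before the rule was applied, the shares were 8.42%, 14.4%, 18.6% and 30.3%, with 1069, 728, 484 and 175 gated cells left. The order of the libraries was the same, and the ratio between genotypes under isotype was then 2.21 (1.63 to 2.99).

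Of all CD45+ cells the picture differed, and C1q-gated cells themselves were scarcer in the Aire-/- anti-PD1 tumors. C1q-gated cells were 39.7%, 35.6%, 29.3% and 9.78% of all cells. Cxcl9-high macrophages were 5.97% (5.14 to 6.89) in Aire+/+ isotype, 7.84% (6.75 to 9.04) in Aire+/+ anti-PD1, 7.49% (6.33 to 8.78) in Aire-/- isotype and 3.90% (3.11 to 4.83) in Aire-/- anti-PD1. The last library was the lowest. Genotype ratios were 1.25 (0.996 to 1.58) with isotype and 0.498 (0.378 to 0.652) with anti-PD1. Treatment ratios were 1.31 (1.06 to 1.63) in Aire+/+ and 0.521 (0.391 to 0.690) in Aire-/-. C1q-gated cells with at most 2 Cxcl9 UMIs went from 21.8% to 5.88% of all cells between isotype and anti-PD1 in Aire-/- tumors, a ratio of 0.270 (0.219 to 0.332). Thinned shares of all cells were 3.29%, 5.22%, 5.20% and 2.89%.

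**Figure D1:**
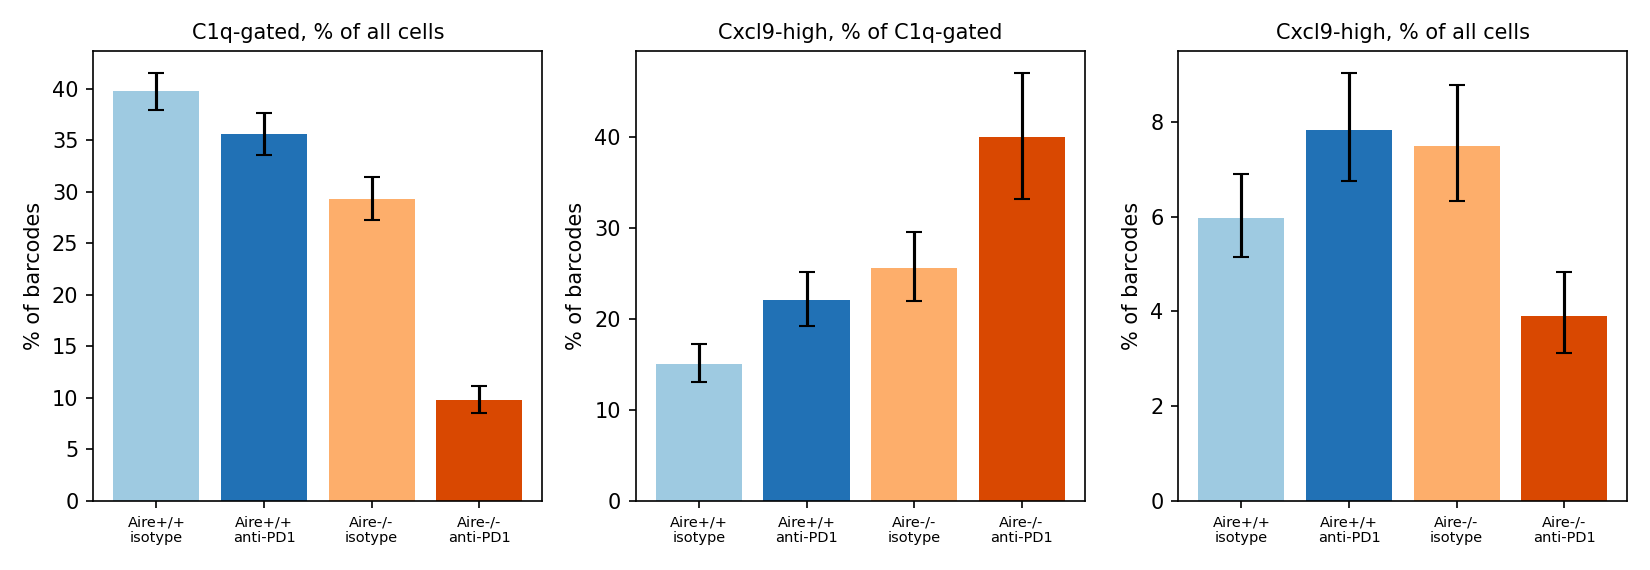
Cxcl9-high macrophages as a percentage of C1q-gated cells and of all CD45+ cells in the 4 tumor libraries, 1 library per condition, with exact 95% Clopper-Pearson intervals that cover counting error only. As a share of C1q-gated cells they are highest in Aire-/- anti-PD1 (39.9%) and lowest in Aire+/+ isotype (15.03%), and of all cells they are lowest in Aire-/- anti-PD1 (3.90%).

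Cxcl9 itself varied widely among the selected cells. Its median was 10, 13, 19 and 15 UMIs per cell, and the cell with most held 171, 253, 258 and 187. The level was 923, 1399, 1755 and 2203 CPM, against 9.06, 10.4, 14.9 and 21.9 CPM in the other C1q-gated cells. Just inside the threshold, 14, 16, 7 and 5 cells held exactly 3 UMIs, and just outside it 25, 20, 19 and 12 gated cells held 2. The 17, 17, 13 and 8 cells with most Cxcl9 held 37.5%, 41.5%, 37.1% and 36.7% of the Cxcl9 UMIs of the selected cells. C1q genes were lowest in the Aire-/- anti-PD1 library, where C1qa stood at 2362 CPM against 3899.7, 4664 and 3076 in the other 3 libraries. C1qb stood at 5042, 5569.5, 4393 and 3451 CPM and C1qc at 3223, 3560.2, 2639.5 and 2019.9 CPM. A cell with less C1q RNA is less likely to reach the minimum of 5. Median C1q UMIs per cell were 183, 176, 130 and 66 in Cxcl9-high macrophages. The part of the minimum in the counts of gated cells was not tested.

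Cxcl9 RNA was not confined to these cells. They held 55.1%, 64.2%, 42.7% and 30.0% of all Cxcl9 UMIs of their libraries, while barcodes with fewer than 5 C1q UMIs held 38.9%, 32.9%, 50.4% and 66.9%. Barcodes with at least 3 Cxcl9 UMIs, fewer than 5 C1q UMIs and no Cd3 or NK UMI numbered 95, 94, 144 and 139. Monocyte markers were higher in them, at 5231, 7267, 6548 and 7126 CPM against 2227, 2403, 3396 and 4340.1 CPM in the Cxcl9-high macrophages. Mature dendritic markers were higher too, at 665, 428, 1467 and 1222 CPM against 75.5, 91.9, 145 and 239 CPM. Macrophage markers did not set the 2 kinds apart in Aire-/- tumors, and in these barcodes stood at 8968, 10290, 10426 and 9824 CPM. Median depth of these barcodes was 12383, 12642, 12548 and 11502 UMIs.

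Against C1q-gated cells of the same library with 0 to 2 Cxcl9 UMIs, Cxcl9-high macrophages held more RNA of a few serpins, of interferon-inducible GTPases and of the other Cxcr3 ligands. Of 7223 genes with at least 20 UMIs over both pools in each library, 3 rose at least 2-fold in all 4 libraries (0.0415%) and 1 fell at least 2-fold in all 4 (0.0138%). Another measure, a ratio above 1 in all 4 libraries, held for 808 genes (11.2%), and a ratio below 1 in all 4 for 977 (13.5%). The median log2 ratio over all genes tested was -0.02. The rule chose the cells on Cxcl9 and C1q in these same libraries, so every value here is a description of the selection and not a test. Cxcl9-high macrophages also had deeper barcodes than the others, whose median was 14036, 14026, 13426 and 11355 UMIs.

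Serpina3g, an inhibitor of lysosomal cathepsins, stood at 63.5 (55.2 to 72.7), 64.1 (55.3 to 73.9), 70.4 (60.6 to 81.4) and 88.5 (71.4 to 109) CPM, against 12.7, 13.1, 14.7 and 17.1 CPM in the other C1q-gated cells. Its log2 ratio was 2.33, 2.29, 2.26 and 2.37. A UMI of it was found in 19.8%, 20.7%, 19.1% and 20.3% of thinned Cxcl9-high macrophages, or 38.3%, 38.7%, 40.3% and 37.0% unthinned, and in more of the thinned Cd3 barcodes, at 32.5%, 35.8%, 38.0% and 43.2%. The part of free RNA in its level was not tested. Serpina3f, a serpin of the same gene cluster, stood at 12.3, 15.9, 15.4 and 15.4 CPM with log2 ratios of 2.41, 2.201, 1.71 and 2.49. Genes of this cluster are near-identical copies, so reads could be split between them in counting. Dnase1l3, a secreted DNase that digests chromatin in cell debris, stood at 13.8, 18.3, 22.7 and 37.5 CPM against 2.86, 7.59, 7.71 and 18.5 CPM. Serpina3g, Serpina3f and Dnase1l3 are the 3 genes that rose. With every barcode thinned to 5000 UMIs, the 3 were Serpina3g, Cnn3 and Nos2. Leaving out barcodes above the 95th percentile of UMIs in their library, or those with a UMI of another T cell marker, left 1 gene that rose in all 4 libraries. Mt2, a metallothionein that binds zinc and copper, fell at least 2-fold in all 4 libraries, from 16.1, 14.6, 10.9 and 36.9 CPM in the others to 7.22, 4.07, 5 and 1.92 CPM, on 24, 12, 13 and 2 UMIs. In Aire-/- anti-PD1, with 2 UMIs, its log2 ratio was -4.26 (-7.34 to -2.34). This call was lost without the Cd3 and NK conditions, without barcodes holding a UMI of another T cell marker and against others with 0 Cxcl9 UMIs, each time with the ratio nearest 0 just short of 2-fold, and after thinning S100a8 was lower in its place.

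Cxcl10 and Cxcl11, which bind the same receptor as Cxcl9, were both higher in all 4 libraries, with a list median of 0.92 log2. Cxcl10 stood at 1858, 1787, 2431 and 2268 CPM against 1123, 934, 1856 and 1423 CPM, and its log2 ratios were 0.73, 0.94, 0.39 and 0.67. Cxcl11 stood at 265, 253, 285 and 246 CPM against 126, 108, 168 and 86.8 CPM, with ratios of 1.07, 1.23, 0.77 and 1.504. With each barcode thinned to 5000 UMIs, 62.2%, 60.4%, 68.4% and 55.7% of the Cxcl9-high macrophages had a UMI of Cxcl10, against 18.7%, 17.6%, 21.3% and 16.4% of Cd3 barcodes. Unthinned shares were 72%, 68.8%, 78.4% and 70.4%. For Cxcl11 the thinned shares were 38.4%, 42.0%, 41.2% and 35.4%, against 3.61%, 1.17%, 4.19% and 0.995% in Cd3 barcodes, and unthinned 56%, 60.1%, 56.1% and 48.1%.

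Interferon-inducible GTPases, which attack vacuoles that hold microbes, were higher almost throughout. Of 15 tested, 14 were higher in all 4 libraries and 0 lower, with a median of 0.71 log2 against -0.02 for all genes. None reached 2-fold in all 4. Gbp2 stood at 542 (517 to 568), 569.7 (543 to 598), 979 (941 to 1018) and 1382 (1311 to 1455) CPM, against 212, 174, 562 and 648 CPM in the other C1q-gated cells. The ratio was smallest in Aire-/- isotype, where the other cells were high as well. Gbp5, which helps assemble inflammasomes, stood at 58.1, 58.0, 92.3 and 106 CPM against 27.7, 21.7, 57.5 and 47.9 CPM. Gbp4 stood at 88.8, 100.4, 149.6 and 259 CPM against 49.7, 35.8, 111 and 93.7 CPM. Iigp1, an immunity-related GTPase, stood at 162, 166, 222 and 325 CPM against 65.4, 56.8, 156 and 153 CPM. Tgtp1, of the same family, stood at 17.2, 22.7, 50.4 and 59.7 CPM against 9.06, 10.4, 22.95 and 30.1 CPM, and reads of its near-identical neighbour Tgtp2 cannot be told apart from its own with certainty. Irgm1, a regulator of these GTPases, was the exception, with log2 ratios of 0.25, 0.36, 0.18 and -0.01.

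Among genes of interferon-gamma signalling, 7 of 15 were higher in all 4 libraries and 2 lower, with a median of 0.12. Irf1, an interferon-inducible transcription factor, stood at 250.1, 274, 321 and 428 CPM against 184, 178, 265 and 312 CPM. Ciita, which switches on MHC class II genes, stood at 26.2, 23.4, 46.5 and 62.6 CPM against 16.5, 14.5, 30.5 and 43.8 CPM. Both genes were higher in every library, by less than 2-fold each. Ifngr1, a chain of the receptor, went the other way with log2 ratios of -0.50, -0.50, -0.07 and -0.24. The suppressor Socs1 stood at 141, 114, 208 and 263 CPM, with ratios of 0.40, 0.34, 0.17 and 0.39.

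Antigen presentation genes were higher in most cases. Of the MHC class II list, 8 of 10 genes were higher in all 4 libraries and 0 lower, with a median of 0.43. Cd74, the invariant chain that guides class II molecules, stood at 15101, 13035, 20381 and 22408 CPM against 10997, 11953, 14560 and 16964 CPM. H2-Ab1, a class II beta chain, stood at 4088, 3549, 5563 and 7048 CPM with log2 ratios of 0.58, 0.14, 0.53 and 0.61. The ratios of both genes were smallest in Aire+/+ anti-PD1. Of the MHC class I and immunoproteasome list, 10 of 19 were higher in all 4 and 0 lower, with a median of 0.26. Psmb8, an immunoproteasome subunit, stood at 977, 853, 1020.4 and 1056 CPM against 779, 701, 889 and 854 CPM, and Psme2, a proteasome activator, at 421, 412, 491 and 628 CPM against 310.2, 306, 388 and 451 CPM. Tapbpl, a peptide-loading chaperone, had ratios of 0.52, 0.59, 0.58 and 0.52. The class I heavy chain H2-K1 differed little, with ratios of -0.04, 0.09, -0.11 and 0.14, and class I genes are similar enough in sequence that their counts are uncertain.

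Genes of the type I interferon response were split. Of 28 tested, 5 were higher in all 4 libraries and 3 lower, and the median was 0.03. Isg15, a ubiquitin-like protein, stood at 2293, 2377, 3135 and 2971 CPM with ratios of 0.27, 0.37, -0.08 and 0.25. Cmpk2, a mitochondrial nucleotide kinase, had ratios of 0.70, 0.82, -0.06 and 0.04, higher in Aire+/+ than in Aire-/- libraries. Irf7, a master regulator of these genes, had ratios of -0.08, -0.04, -0.27 and -0.41, below 0 in all 4. The Ifitm family, membrane proteins that block virus entry, had 4 members tested, none of them on 1 side in all 4 libraries, with a median of -0.08.

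Ligands for T cells lay on both sides. Of 17 tested, 5 were higher in all 4 libraries and 4 lower, with a median of -0.06. Cd40, through which helper T cells activate macrophages, stood at 165, 197, 233 and 265 CPM against 97.6, 98.4, 162 and 116 CPM. Cd274, which encodes PD-L1, stood at 189, 204, 244 and 394 CPM against 141, 141, 215 and 208 CPM. Pdcd1lg2, which encodes PD-L2, stood at 7.22, 16.3, 25.4 and 64.5 CPM with ratios of 0.16, 1.53, 0.56 and 1.70. Tnfsf9, the ligand of the costimulatory receptor 4-1BB, was lower at 91.8, 79.4, 56.2 and 22.1 CPM against 141, 141, 142 and 127 CPM. The gap of Tnfsf9 was widest in Aire-/- anti-PD1.

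In arginine, tryptophan and itaconate metabolism, 5 of 11 genes were higher in all 4 libraries and 2 lower, with a median of 0.01. Nos2, the inducible nitric oxide synthase, stood at 21.1 (16.4 to 26.6), 30.5 (24.6 to 37.5), 59.2 (50.2 to 69.4) and 173 (149 to 200.5) CPM against 19.6, 14.5, 25.6 and 66.3 CPM. Irg1, which makes itaconate, stood at 296, 298, 299 and 361 CPM against 178, 148, 247 and 222 CPM. Sod2, a mitochondrial superoxide dismutase, stood at 233, 196, 271 and 418 CPM against 148, 139, 156 and 183 CPM.

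Of the inflammatory cytokine list, 7 of 16 genes were higher in all 4 libraries and 1 lower, with a median of 0.20. Il27, the p28 subunit of interleukin 27, stood at 15.6, 18.3, 25.4 and 31.8 CPM against 7.22, 6.07, 17.3 and 19.1 CPM. Il1b stood at 4046, 3484, 4173 and 5389 CPM, with ratios of 0.05, -0.22, -0.12 and 0.14 that did not share a sign. Of the other chemokines, 2 of 15 were higher in all 4 and 5 lower, with a median of -0.27. Ccl5, a chemokine that attracts T cells, was higher at 494, 946, 982 and 2012 CPM against 359, 630.2, 858 and 1526 CPM. Ccl2, which recruits monocytes through Ccr2, was lower at 1822, 1332, 1584 and 991 CPM against 2468, 1623, 2091 and 2323 CPM. Pf4, a platelet chemokine that tissue macrophages also make, was lower at 125, 65.8, 41.9 and 10.6 CPM against 210.1, 129.9, 93.0 and 29.4 CPM. In the complement list other than C1q, 2 of 9 were higher in all 4 and 2 lower, with a median of 0.24. C3, the central component, stood at 96.3, 173, 172 and 289 CPM against 71.2, 91.5, 106 and 172 CPM, while the receptor C3ar1 was lower with ratios of -0.55, -0.41, -0.40 and -0.82. Of 5 Fc gamma receptor genes 1 was higher in all 4 and 1 lower, with a median of -0.06. Fcgr4 was the higher one, with ratios of 0.40, 0.77, 0.22 and 0.43, and Fcgr1 the lower one, with -0.24, -0.10, -0.24 and -0.29.

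Lipid-associated and hypoxic genes lay on the lower side. Of the lipid-associated list, 0 of 14 genes were higher in all 4 libraries and 8 lower, with a median of -0.25. Spp1, which encodes osteopontin, stood at 434 (412 to 457), 409 (386 to 432), 290.0 (269.7 to 311) and 60.6 (46.6 to 77.6) CPM against 1073, 587, 594 and 129.9 CPM in the other C1q-gated cells. Plin2, a coat protein of lipid droplets, stood at 323, 451, 339 and 282 CPM against 468, 543, 522 and 390.5 CPM. Of the glycolysis and hypoxia list, 2 of 22 were higher in all 4 and 10 lower, with a median of -0.20. Hmox1, which degrades heme, had ratios of -0.84, -0.72, -0.34 and -1.07. Hk2, a hexokinase, was higher with ratios of 0.11, 0.24, 0.36 and 0.40. Lysosome and cathepsin genes had 1 of 15 higher and 6 lower in all 4, with a median of -0.02. Ctsl, a lysosomal protease, had ratios of -0.95, -0.62, -0.34 and -0.71. The scavenger and tissue-repair list had 1 of 11 higher and 3 lower, with a median of -0.11. Genes of dissociation stress, which tissue digestion can induce, had 0 of 12 higher and 6 lower in all 4, with a median of -0.18, and their part in these differences was not tested.

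Further genes of varied function were among the 20 highest. Slamf8, a SLAM family receptor, stood at 70.7, 96.4, 113 and 156 CPM against 31.8, 29.0, 71.9 and 80.01 CPM. Fam26f stood at 157, 183, 211 and 331 CPM against 63.5, 63.3, 126 and 144 CPM, and AW112010, an interferon-inducible transcript, at 1587, 1583, 1764 and 2662 CPM against 844, 821, 1209.9 and 1525 CPM. Batf2, a transcription factor induced by interferons, had ratios of 0.71, 1.39, 0.74 and 1.11. Upp1, uridine phosphorylase, had ratios of 0.73, 0.76, 0.70 and 1.37, Vdr, the vitamin D receptor, 0.97, 1.35, 0.73 and 0.71, and Tmem173, which encodes the DNA-sensing adaptor STING, 0.57, 0.66, 0.52 and 0.57. Cnn3, an actin-binding calponin, had ratios of 1.55, 2.49, 0.78 and 1.91. Mmp25, a membrane-anchored metalloproteinase, had ratios of 0.56, 1.34, 0.86 and 1.59, and F830016B08Rik 1.46, 0.84, 1.51 and 1.66.

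On the other end, Emp1, an epithelial membrane protein, stood at 94.8, 103, 98.8 and 59.7 CPM against 181, 180.3, 161 and 137 CPM. Slfn4, a schlafen, stood at 218, 216, 309 and 156 CPM against 333, 310.0, 463 and 310.5 CPM. Areg, a ligand of the epidermal growth factor receptor, had ratios of -0.59, -0.55, -0.87 and -1.71, with 57.1% and 61.8% of its UMIs in 1 cell after anti-PD1. Fbxo32, Lrp12, Mtss1, Sntb2, Dhrs3, Map4k3, Prmt2 and Rell1 were also lower in all 4 libraries. Among them the ratio nearest 0 ran from -0.85 for Fbxo32 to -0.45 for Rell1.

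Across C1q-gated cells the GTPase level was higher where Cxcl9 UMIs were more numerous, though not at every step. Cells with 0 Cxcl9 UMIs held 1102, 1029, 2329 and 2189 CPM of the list, and those with 10 or more held 2243, 2494, 3330.1 and 4362 CPM. In between, cells with 1 to 2 held 1469.8, 931, 2128 and 2428 CPM, those with 3 to 4 held 1857, 1695, 2345 and 1963 CPM and those with 5 to 9 held 1560.2, 1564, 2921 and 3888 CPM. The 1 to 2 class was below the class at 0 in Aire+/+ anti-PD1 and Aire-/- isotype. In Aire-/- anti-PD1 the 3 to 4 class, of 10 cells, was below the class at 0, and in Aire+/+ the 5 to 9 class was below the 3 to 4 class. Lipid-associated genes went from 8739, 9129.8, 7463 and 5822 CPM at 0 UMIs to 6843, 7566, 5927 and 4844 CPM at 10 or more. At 3 to 4 UMIs they stood at 6028, 7995, 4959.5 and 3494 CPM, the lowest class in 3 libraries, so the change was not steady. MHC class II genes held 25647, 27463, 32660 and 38955 CPM at 0 UMIs, 27087, 35497, 37901 and 39415 CPM at 1 to 2, 32789, 28701, 41976 and 48878 CPM at 3 to 4, 36384, 35223, 40774 and 56660 CPM at 5 to 9 and 34136, 29969, 46885 and 50258 CPM at 10 or more, with no steady course either. Median depth also differed between the classes, and its part was not tested.

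**Figure D2:**
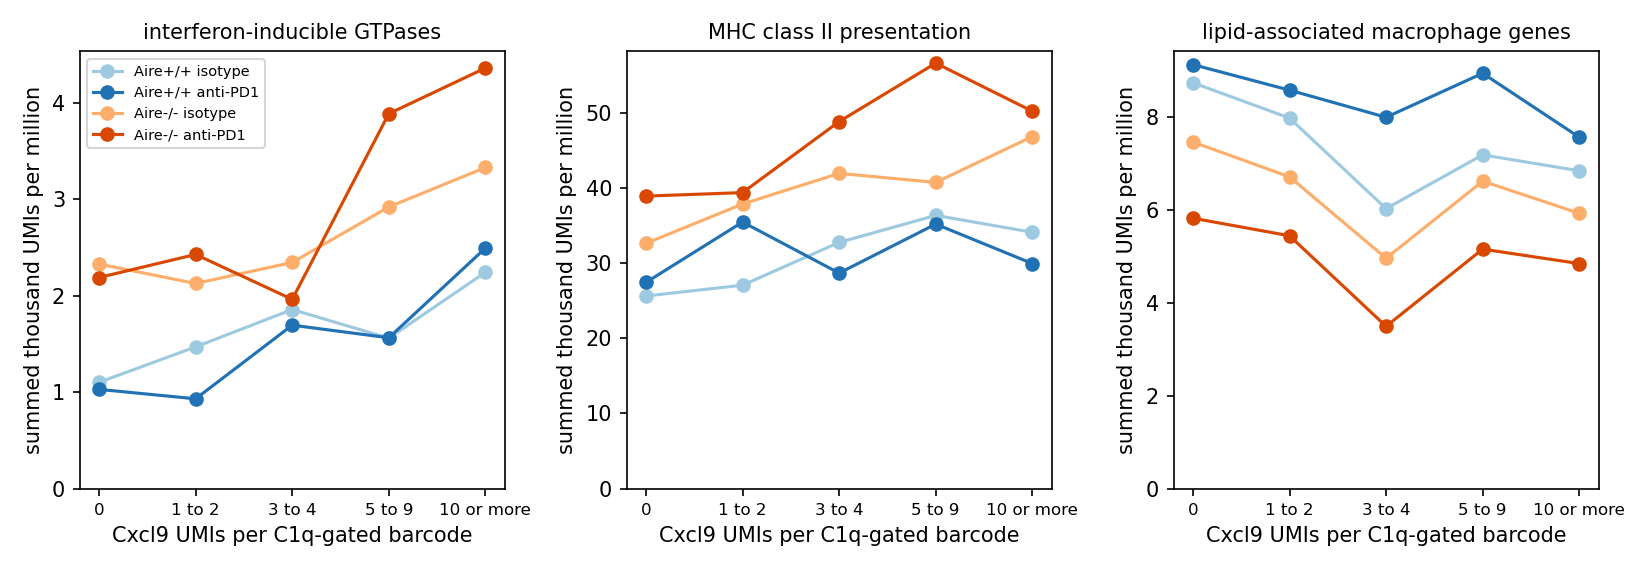
Summed level of gene lists in CPM (UMIs per 1000000), over C1q-gated cells classed by their number of Cxcl9 UMIs (0, 1 to 2, 3 to 4, 5 to 9, 10 or more), 1 line for each of the 4 libraries. In the GTPase list the class with 10 or more lies above the class at 0 in all 4 libraries, from 1102 to 2243 CPM in Aire+/+ isotype and from 2189 to 4362 CPM in Aire-/- anti-PD1.

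Promoter sequences of the genes that were higher were searched for the motifs of interferon signalling. A GAS element, the interferon-gamma activated site, was spelled TTCNNNGAA. An interferon-stimulated response element (ISRE) was spelled GAAANNGAA. Both strands were read over windows of 300 bases around the transcript start in RefSeq (build GRCm38.p6). Of 27025 genes with an entry, 9.55% held the GAS letters in any of their windows and 9.76% the ISRE letters. Of all 32851 windows, 8.30% held the GAS letters and 8.56% the ISRE letters. Of the 20 highest genes 12 had an entry, and of these 4 held GAS letters and 6 ISRE letters. Of the 15 lowest genes 10 had an entry, and of these 1 held GAS letters and 2 ISRE letters. Batf2, Cd40, Cxcl11, Dnase1l3, F830016B08Rik, Il27, Tmem173, Fbxo32, Lrp12, Mtss1, Sntb2 and Tnfsf9 were among those without an entry. Cxcl9 and Cxcl10 each had an entry with ISRE letters and no GAS letters. In Serpina3f the GAS and ISRE letters overlap, and the ISRE letters are on the other strand. A match describes letters in a window and shows no binding.

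Serpina3g is shown since it rose in all 4 libraries, and Gbp2, Gbp5 and Tgtp1 since they are GTPases high in all 4 libraries. Capitals mark GAS and ISRE letters, and no 2 matches overlap in these 4 windows. The Serpina3g window, chr12:104235897-104236196 on the plus strand, holds GAS at -33 from the start. The Gbp2 window, chr3:142620413-142620712 on the plus strand, holds ISRE at -58, read on the other strand. The Gbp5 window, chr3:142496684-142496983 on the plus strand, holds GAS at -245 and -52 and, on the other strand, ISRE at -164. The Tgtp1 window, chr11:48992197-48992496 on the minus strand, holds GAS at -88 and ISRE at -77. Positions give the first base of the match, and sequences are from RefSeq, written 5′ to 3′.
Serpina3g: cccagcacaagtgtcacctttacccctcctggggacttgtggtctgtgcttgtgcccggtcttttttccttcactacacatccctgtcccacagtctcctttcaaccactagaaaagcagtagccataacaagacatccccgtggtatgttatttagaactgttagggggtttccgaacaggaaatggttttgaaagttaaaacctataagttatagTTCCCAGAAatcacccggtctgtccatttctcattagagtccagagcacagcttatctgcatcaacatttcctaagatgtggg
Gbp2: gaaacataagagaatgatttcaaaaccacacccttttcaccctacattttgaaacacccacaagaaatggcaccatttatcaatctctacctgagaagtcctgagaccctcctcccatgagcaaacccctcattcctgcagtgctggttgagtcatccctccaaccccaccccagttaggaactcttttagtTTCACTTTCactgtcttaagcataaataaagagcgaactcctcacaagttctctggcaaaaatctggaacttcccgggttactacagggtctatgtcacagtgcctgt
Gbp5: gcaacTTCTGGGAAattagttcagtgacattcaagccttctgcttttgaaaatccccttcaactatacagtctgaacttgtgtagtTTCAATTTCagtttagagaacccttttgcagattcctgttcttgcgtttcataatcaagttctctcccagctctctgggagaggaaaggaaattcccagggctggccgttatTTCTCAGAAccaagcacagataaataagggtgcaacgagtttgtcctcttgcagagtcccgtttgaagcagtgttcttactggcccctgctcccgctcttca
Tgtp1: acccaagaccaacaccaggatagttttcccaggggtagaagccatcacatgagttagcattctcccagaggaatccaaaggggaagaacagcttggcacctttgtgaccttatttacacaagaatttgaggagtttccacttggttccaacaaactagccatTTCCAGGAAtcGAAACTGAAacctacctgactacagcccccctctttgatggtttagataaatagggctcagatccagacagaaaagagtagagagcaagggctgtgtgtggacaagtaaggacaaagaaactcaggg

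Between genotypes under isotype, the question is how Cxcl9-high macrophages differ when central tolerance is broken and no checkpoint is blocked. In Aire-/- they held more RNA of interferon-inducible GTPases, of the type I interferon response and of MHC class II, and less of Klf2, Pf4 and some mitotic genes. These list differences are not particular to them. In the other C1q-gated cells GTPases summed to 1147 CPM in Aire+/+ isotype and 2291 CPM in Aire-/- isotype, against 1970 and 3149 CPM in Cxcl9-high macrophages. Type I interferon genes summed to 9953 and 15192 CPM in those other cells, and MHC class II genes to 25821 and 33632 CPM. Of 5377 genes with at least 100 UMIs over both libraries, 45 rose at least 2-fold (0.837%) and 27 fell (0.502%), 49.0% were higher and the median was -0.01 log2. All 15 GTPases tested were higher, with a median of 0.62, and 1 rose 2-fold. That gene was Tgtp1, with the levels given above and a log2 ratio of 1.55 (1.10 to 2.03). Gbp2 had a ratio of 0.85 (0.76 to 0.94), short of 2-fold. Ifi47, an immunity-related GTPase, was at 295, 298, 453 and 510.0 CPM, a log2 ratio of 0.62 (0.49 to 0.74). Gbp2, Tgtp1 and Ifi47 were each higher in both Aire-/- libraries than in either Aire+/+ library.

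All 28 genes of the type I interferon list were higher, with a median of 0.42 and none at 2-fold. Ifi205, of the DNA-sensor family, was at 264, 294, 457 and 435 CPM, a log2 ratio of 0.79 (0.66 to 0.91). Ifit3, of a family that binds viral RNA, was at 370.1, 500.5, 597 and 359 CPM, a log2 ratio of 0.69 (0.58 to 0.80). Of the class II list, 7 of 8 were higher, with a median of 0.38. H2-Aa, an alpha chain, reached 4557, 4003, 6266 and 7711 CPM, a log2 ratio of 0.46 (0.43 to 0.49). The gene on the other side was Ifi30, a lysosomal thiol reductase, at 1646, 1423, 1602 and 1420.4 CPM, a log2 ratio of -0.04 (-0.10 to 0.02), which differed little. All 4 Ifitm genes were higher, with a median of 0.37. In arginine metabolism 9 of 10 were higher, with a median of 0.35. Nos2 rose from 21.1 to 59.2 CPM, a ratio of 1.49 (1.07 to 1.92). Of the glycolysis and hypoxia list, 19 of 21 were higher, with a median of 0.21.

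Procr, the endothelial protein C receptor, was among the genes with the largest ratios under isotype, at 3.91, 2.38, 36.5 and 17.3 CPM, a log2 ratio of 3.22 (2.38 to 4.18). BC002163 reached 12.9, 12.6, 93.5 and 72.2 CPM, a log2 ratio of 2.85 (2.38 to 3.36). Slc4a11, a membrane transporter, reached 6.92, 8.14, 39.6 and 60.6 CPM, a log2 ratio of 2.52 (1.85 to 3.24). Plxnd1, a semaphorin receptor, reached 12.6, 13.6, 47.7 and 49.1 CPM, a log2 ratio of 1.92 (1.40 to 2.46). BC002163, Slc4a11 and Plxnd1 were high in both Aire-/- libraries and low in both Aire+/+ libraries. The study also lists BC002163 as higher in a cluster of activated CD8+ T cells and in NK cells of Aire-/- tumors given anti-PD1. Mmp25 reached 8.43, 14.3, 35.0 and 43.3 CPM, a log2 ratio of 2.05 (1.43 to 2.72). Ccr7, a chemokine receptor of mature dendritic cells, also passed 2-fold, but 1 cell held 96.0% of its UMIs in Aire-/- isotype. The B cell chemokine Cxcl13 did so too, with 53.9% in 1 cell, as did Edn1, which encodes an endothelin, with 59.7%.

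Klf2, a transcription factor that restrains inflammatory genes in macrophages, was at 794 (764 to 825), 794 (762 to 826), 289.6 (269 to 311) and 266 (235 to 299) CPM. Its log2 ratio under isotype was -1.45 (-1.57 to -1.34), and it was low in both Aire-/- libraries. The study also lists Klf2 as lower in activated CD8+ T cells and NK cells of Aire-/- tumors given anti-PD1, so it is not particular to macrophages. Pf4 had a ratio of -1.57 (-1.89 to -1.27) under isotype. Fblim1, a filamin-binding protein, was at 23.5, 39.7, 8.46 and 4.81 CPM, a log2 ratio of -1.47 (-2.23 to -0.77). Cell-cycle genes were split, with 5 of 15 higher, 3 at 2-fold lower and a median of -0.10. Ccnb2, a mitotic cyclin, was at 45.1, 27.8, 13.1 and 20.2 CPM, a log2 ratio of -1.79 (-2.37 to -1.24). Birc5, which encodes survivin, was at 51.8, 36.0, 18.8 and 13.5 CPM, a log2 ratio of -1.46 (-1.95 to -0.99). Tacc3, a spindle protein, was at 23.2, 12.9, 8.85 and 6.74 CPM, a log2 ratio of -1.39 (-2.13 to -0.70). These 3 mitotic genes were highest in Aire+/+ isotype.

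Of the other chemokines 4 of 16 were higher in Aire-/-, with a median of -0.33. Cxcl1, which attracts neutrophils, was at 26.5, 26.5, 8.85 and 22.1 CPM, a log2 ratio of -1.58 (-2.31 to -0.91). Cxcl3, of the same family, was at 55.4, 5.77, 18.1 and 18.3 CPM, a log2 ratio of -1.61 (-2.11 to -1.15). Both rest on few cells: 1 cell of Aire+/+ isotype held 53.4% of the Cxcl1 UMIs and 40.2% of the Cxcl3 UMIs. Monocyte markers were higher in Aire-/- in 9 of 10 cases, with a median of 0.53. Genes of dissociation stress were higher in 2 of 11, with a median of -0.32 and a summed level of 21690, 18818, 16472 and 15798 CPM in the 4 libraries. The part of either list in the other differences was not tested.

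With anti-PD1 given to both genotypes, the comparison asks the same of tumors under checkpoint blockade. Nos2, Slc7a2, Ifitm1 and the GTPases were higher in Aire-/-, whereas Spp1, Lpl, Pf4, lysosomal genes and the pair Hspa1a and Hspa1b were lower. Several of these differences are not particular to Cxcl9-high macrophages. In the other C1q-gated cells Nos2 was higher and Spp1 and Pf4 lower too, at the levels given above. GTPases summed to 1016 CPM in those cells of Aire+/+ anti-PD1 and 2225 CPM in Aire-/- anti-PD1. Their lysosome and cathepsin genes summed to 15619 and 12067 CPM. Of 4248 genes tested, 63 rose at least 2-fold (1.48%) and 110 fell (2.59%), 40.2% were higher and the median was -0.09 log2. Scaled by the median ratio of genes in place of all UMIs, 85 rose and 86 fell. All 15 GTPases were higher, 3 of them at 2-fold, with a median of 0.80. Gbp2 rose from 569.7 to 1382 CPM, a ratio of 1.28 (1.18 to 1.38). Gbp4 rose from 100.4 to 259 CPM, a ratio of 1.37 (1.12 to 1.61). Both genes were at their highest in Aire-/- anti-PD1. Of the class II list 6 of 8 were higher, with a median of 0.68. H2-Ab1 had a ratio of 0.99 (0.95 to 1.03), just short of 2-fold.

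Among interferon-gamma signalling genes 10 of 15 were higher, with a median of 0.24. Ciita rose by 1.42 (0.91 to 1.93) on the log2 scale and Socs1 by 1.2001 (0.96 to 1.43). Jak2, a kinase of the receptor, was at 54.2, 50.9, 68.8 and 109.7 CPM, a log2 ratio of 1.11 (0.74 to 1.47). Of 28 type I interferon genes, 10 were higher and the median was -0.18. Under median-ratio scaling 13 of 28 were higher. Among all genes tested 40.2% were higher, or 50.4% under that scaling, so this list lay near the share of all genes. Ifit3b was at 62.3, 85.8, 90.8 and 42.3 CPM, a log2 ratio of -1.02 (-1.52 to -0.55). Siglec1, a sialic acid receptor of macrophages, was at 32.2, 32.6, 36.2 and 14.4 CPM, a log2 ratio of -1.17 (-2.07 to -0.38). Ifit3b and Siglec1 were lowest in Aire-/- anti-PD1. The Ifitm list was higher in 4 of 4, with a median of 1.01. Ifitm1, which blocks virus entry, was at 698 (669 to 726), 428 (405 to 452), 1230.3 (1188 to 1274) and 1911 (1828 to 1997) CPM, and its ratio was 2.16 (2.06 to 2.26).

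Arginine metabolism was higher in 8 of 10 genes, with a median of 0.61. Nos2 went from 30.5 to 173 CPM, a ratio of 2.50 (2.13 to 2.89). Slc7a2, an arginine transporter, was at 13.5, 15.6, 22.7 and 77.9 CPM, a log2 ratio of 2.32 (1.78 to 2.88). Both genes were highest in Aire-/- anti-PD1. Slc7a11, which imports cystine, was at 58.7, 34.3, 57.3 and 88.5 CPM, a log2 ratio of 1.37 (0.95 to 1.79). Sod2 had a ratio of 1.09 (0.91 to 1.27). Upp1 was at 87.9, 60.1, 171 and 282 CPM, a log2 ratio of 2.23 (1.96 to 2.51), and Cnn3 at 25.3, 34.6, 78.8 and 144 CPM, a log2 ratio of 2.06 (1.69 to 2.44). BC002163 had a ratio of 2.52 (1.94 to 3.13). Bambi, a decoy receptor of transforming growth factor beta, was at 34.0, 14.3, 32.3 and 63.5 CPM, a log2 ratio of 2.16 (1.58 to 2.75), and 34.8% of its UMIs in Aire-/- anti-PD1 were in 1 cell. Ccr7 passed 2-fold on a single cell, which held 100% of its UMIs there.

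Lipid-associated genes were lower, with 2 of 14 higher, 5 at 2-fold lower and a median of -0.73. Spp1 fell from 409 to 60.6 CPM, a ratio of -2.75 (-3.14 to -2.39). Apoe was at 2478, 3551, 2035 and 1353 CPM, a log2 ratio of -1.39 (-1.47 to -1.31). Lpl, lipoprotein lipase, had 77, 134, 29 and 0 UMIs, at least 15.7-fold lower in Aire-/- with a floor of 3 counts. All 3 were lowest in Aire-/- anti-PD1. Of lysosome and cathepsin genes 2 of 15 were higher, with a median of -0.53. Lgmn, the protease legumain, was at 1411, 1638, 1316 and 730.4 CPM, a log2 ratio of -1.17 (-1.28 to -1.05). The other chemokines had 1 of 15 higher and a median of -0.46. Ccl7, a monocyte chemokine, was at 1604, 1239.8, 1478 and 563 CPM, a log2 ratio of -1.14 (-1.27 to -1.01). Pf4 had a ratio of -2.64 (-3.66 to -1.77). Ccl5 had a ratio of 1.09 (1.01 to 1.17). A UMI of Ccl5 was found in 40.1%, 42.6%, 54.4% and 58.2% of thinned Cxcl9-high macrophages, or 50.9%, 54.9%, 64.0% and 72.8% unthinned, and in 47.9%, 58.9%, 55.4% and 65.4% of thinned Cd3 barcodes. T cells make Ccl5 themselves, so the share in Cd3 barcodes is no measure of free RNA. T cell markers outside the gate summed to 2.71, 2.38, 3.08 and 2.89 CPM in Cxcl9-high macrophages and to 3934, 4954, 5129 and 6189 CPM in Cd3 barcodes. The part of T cell RNA in the Ccl5 level was not tested.

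Klf2 had a ratio of -1.58 (-1.76 to -1.40) under anti-PD1, and Fblim1 -3.04 (-4.69 to -1.78). Hspa1a, an inducible heat-shock protein, was at 70.1, 184, 95.4 and 27.9 CPM, a log2 ratio of -2.72 (-3.31 to -2.18). Hspa1b, its near-identical copy, was at 10.5, 33.3, 18.5 and 3.85 CPM, a log2 ratio of -3.11 (-5.02 to -1.71), and the counts of the pair are uncertain for that reason. Hspa1a and Hspa1b were both highest in Aire+/+ anti-PD1, and both belong to the dissociation stress list. Gdf15, a stress cytokine, was at 3.01, 33.3, 1.15 and 3.85 CPM, a log2 ratio of -3.11 (-5.02 to -1.71), and G530011O06Rik at 98.4, 120.5, 81.9 and 19.2 CPM, a log2 ratio of -2.65 (-3.37 to -1.997). Tnfsf9 had a ratio of -1.84 (-2.53 to -1.22). No cell-cycle gene of 9 tested was higher, and their median was -0.46. Monocyte markers were higher in 8 of 8, with a median of 0.66. Their summed level was 2227, 2403, 3396 and 4340.1 CPM. Genes of dissociation stress were higher in 3 of 12, with a median of -0.29, and the part of either list in these differences was not tested.

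In Aire+/+ tumors, anti-PD1 against isotype addresses checkpoint blockade with tolerance intact. Few genes passed 2-fold. Of 5557 genes tested, 26 rose at least 2-fold (0.468%) and 6 fell (0.108%), 50.04% were higher and the median was 0.00 log2. When each cell was given equal weight, 25 rose and 15 fell. GTPases were higher in 12 of 15, with a median of 0.11, and none rose 2-fold. Type I interferon genes were higher in 26 of 28, with a median of 0.22. Ifi44, of this list, was at 20.5, 33.9, 32.7 and 29.8 CPM, a log2 ratio of 0.73 (0.27 to 1.196). Lysosomal genes were higher in 14 of 15, with a median of 0.23. Ctsd, an aspartic protease of lysosomes, was at 242, 372, 239.6 and 248 CPM, a log2 ratio of 0.62 (0.49 to 0.75). Lipid-associated genes were higher in 9 of 14, with a median of 0.28. Abca1, a cholesterol exporter, was at 29.2, 51.6, 48.5 and 61.6 CPM, a log2 ratio of 0.82 (0.44 to 1.204). None of Ifi44, Ctsd and Abca1 reached 2-fold. MHC class II genes were higher in 1 of 8, with a median of -0.20.

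Among genes higher after anti-PD1, Gdf15 rose from 3.01 to 33.3 CPM, a ratio of 3.47 (2.53 to 4.57). Fcrl5, an Fc receptor-like gene, was at 6.02, 34.3, 10.8 and 5.77 CPM, a log2 ratio of 2.51 (1.81 to 3.28). Lipg, a lipase, was at 10.2, 50.9, 36.9 and 9.62 CPM, a log2 ratio of 2.31 (1.77 to 2.90). Vcam1, an adhesion molecule, was at 8.12, 26.1, 3.46 and 5.77 CPM, a log2 ratio of 1.69 (1.04 to 2.37). Hes1, a transcription factor downstream of Notch, was at 15.9, 53.3, 20 and 14.4 CPM, a log2 ratio of 1.74 (1.28 to 2.22). Hsph1, a heat-shock protein, was at 8.12, 28.5, 15 and 7.70 CPM, a log2 ratio of 1.81 (1.17 to 2.49), and Hspa1a had a ratio of 1.39 (1.16 to 1.62). All of these genes were highest in Aire+/+ anti-PD1. In that library 1 cell held 26.8% of Hspa1a UMIs. Hspa1a also belongs to the dissociation stress list. Of that list 5 of 12 were higher, 2 of them at 2-fold, with a median of -0.11. The part of that list in these differences was not tested. Cxcl13 passed 2-fold even with its 0 UMIs after isotype set to 3 counts, against 176 after anti-PD1, with 100% of them in 1 cell. Vegfa, an angiogenic factor, was at 104, 183, 183 and 270.4 CPM, a log2 ratio of 0.82 (0.62 to 1.01), below the threshold. Ccl5 had a ratio of 0.94 (0.85 to 1.03), just below it.

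Mmp12, the macrophage elastase, was at 127, 24.4, 49.2 and 52.0 CPM, a log2 ratio of -2.38 (-2.76 to -2.01), highest in Aire+/+ isotype. Inhba, a subunit of activin A, was at 35.8, 5.43, 21.9 and 58.7 CPM, a log2 ratio of -2.72 (-3.57 to -1.96). Cxcl3 had a ratio of -3.26 (-4.07 to -2.54). Pias4, a SUMO ligase, was at 21.97, 9.84, 16.9 and 13.5 CPM, a log2 ratio of -1.16 (-1.83 to -0.52). Aldoc, an aldolase, was at 22.6, 11.2, 24.2 and 23.1 CPM, a log2 ratio of -1.01 (-1.65 to -0.40), barely past 2-fold. Bambi had -1.25 (-1.80 to -0.73), and -0.78 without the cell that held most of its UMIs in each library. Ltb4r1, a leukotriene B4 receptor, was at 137, 69.6, 204 and 206 CPM, a log2 ratio of -0.97 (-1.22 to -0.73), just short of 2-fold. Tango2 had -0.98 (-1.63 to -0.36), also just short. All 4 Ifitm genes were lower, with a median of -0.45. Ifitm1 was at 698 CPM after isotype and 428 CPM after anti-PD1.

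In Aire-/- tumors, anti-PD1 against isotype asks about blockade where tolerance is already broken. Nos2, the arginine transporter gene Slc7a2 and the genes of both PD-1 ligands were higher after anti-PD1, and Spp1 and Pf4 were lower. By the levels given above, Nos2 was also higher and Spp1 and Pf4 also lower in the other C1q-gated cells, while Cd274 differed little there. Of 3963 genes tested, 17 rose at least 2-fold (0.429%) and 43 fell (1.09%), 38.9% were higher and the median was -0.09 log2. Scaled by the median ratio of genes, 24 rose and 30 fell, and 50.5% were higher. GTPases were higher in 14 of 15, with a median of 0.28, and none rose 2-fold. Type I interferon genes were higher in 3 of 28, with a median of -0.26. Under median-ratio scaling 6 of 28 were higher, with a median of -0.17. Siglec1 had a ratio of -1.32 (-2.22 to -0.53) and Ifit3b -1.10 (-1.60 to -0.63), so both fell. Arginine metabolism was higher in 7 of 10, with a median of 0.31. MHC class II genes were higher in 5 of 8, with a median of 0.16.

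Nos2 rose from 59.2 to 173 CPM, a ratio of 1.55 (1.23 to 1.87). Slc7a2 rose from 22.7 to 77.9 CPM, a ratio of 1.78 (1.28 to 2.29). Pdcd1lg2 had a ratio of 1.34 (0.83 to 1.86), with 38.8% of its UMIs in 1 cell after anti-PD1. Cd274 had a ratio of 0.69 (0.51 to 0.87), below the threshold. Nos2, Slc7a2, Pdcd1lg2 and Cd274 were all highest in Aire-/- anti-PD1. Ly6i, a Ly6 family gene, was at 142, 184, 223 and 572 CPM, a log2 ratio of 1.36 (1.19 to 1.52). Egr1, an immediate early gene, was at 162, 163, 121 and 329 CPM, a log2 ratio of 1.44 (1.22 to 1.67). Egr1 and Hspa1a belong to the dissociation stress list. Of that list 6 of 11 were higher, with 1 gene at 2-fold higher, 1 at 2-fold lower and a median of 0.00. The part of that list in these differences was not tested. Mir6236, as the counts name it, was at 1393, 2901, 1957 and 4819 CPM, a log2 ratio of 1.30 (1.24 to 1.36). Inhba had a ratio of 1.42 (0.88 to 1.97), with 32.8% of its UMIs in 1 cell after anti-PD1. Ccl5 rose from 982 to 2012 CPM, a ratio of 1.03 (0.95 to 1.12). Ccr7 passed 2-fold with 100% of its UMIs in 1 cell after anti-PD1.

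Spp1 fell from 290.0 to 60.6 CPM, a ratio of -2.26 (-2.65 to -1.89). Pf4 had a ratio of -1.99 (-3.03 to -1.09), with 63.6% of its 11 UMIs after anti-PD1 in 1 cell. Hist1h2bc, a histone, was at 72.5, 42.8, 43.8 and 9.62 CPM, a log2 ratio of -2.19 (-3.29 to -1.26). G530011O06Rik had a ratio of -2.09 (-2.83 to -1.43), Hspa1a -1.77 (-2.38 to -1.21) and Lipg -1.94 (-3.05 to -0.999). Hmox1 was at 122, 144, 240.0 and 69.3 CPM, a log2 ratio of -1.79 (-2.17 to -1.44). That value rests on 1 cell of Aire-/- isotype with 59.1% of the Hmox1 UMIs, and the ratio was -0.58 without the top cell of each library. C3ar1 was at 579.5, 542, 511 and 243 CPM, a log2 ratio of -1.07 (-1.27 to -0.88). Ccl7 fell as well, with a ratio of -1.39 (-1.52 to -1.27). Lysosomal genes were higher in 2 of 15, with a median of -0.29. Lipid-associated genes were higher in 2 of 13, with a median of -0.28, and other chemokines in 3 of 13, with a median of -0.46.

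**Figure D3:**
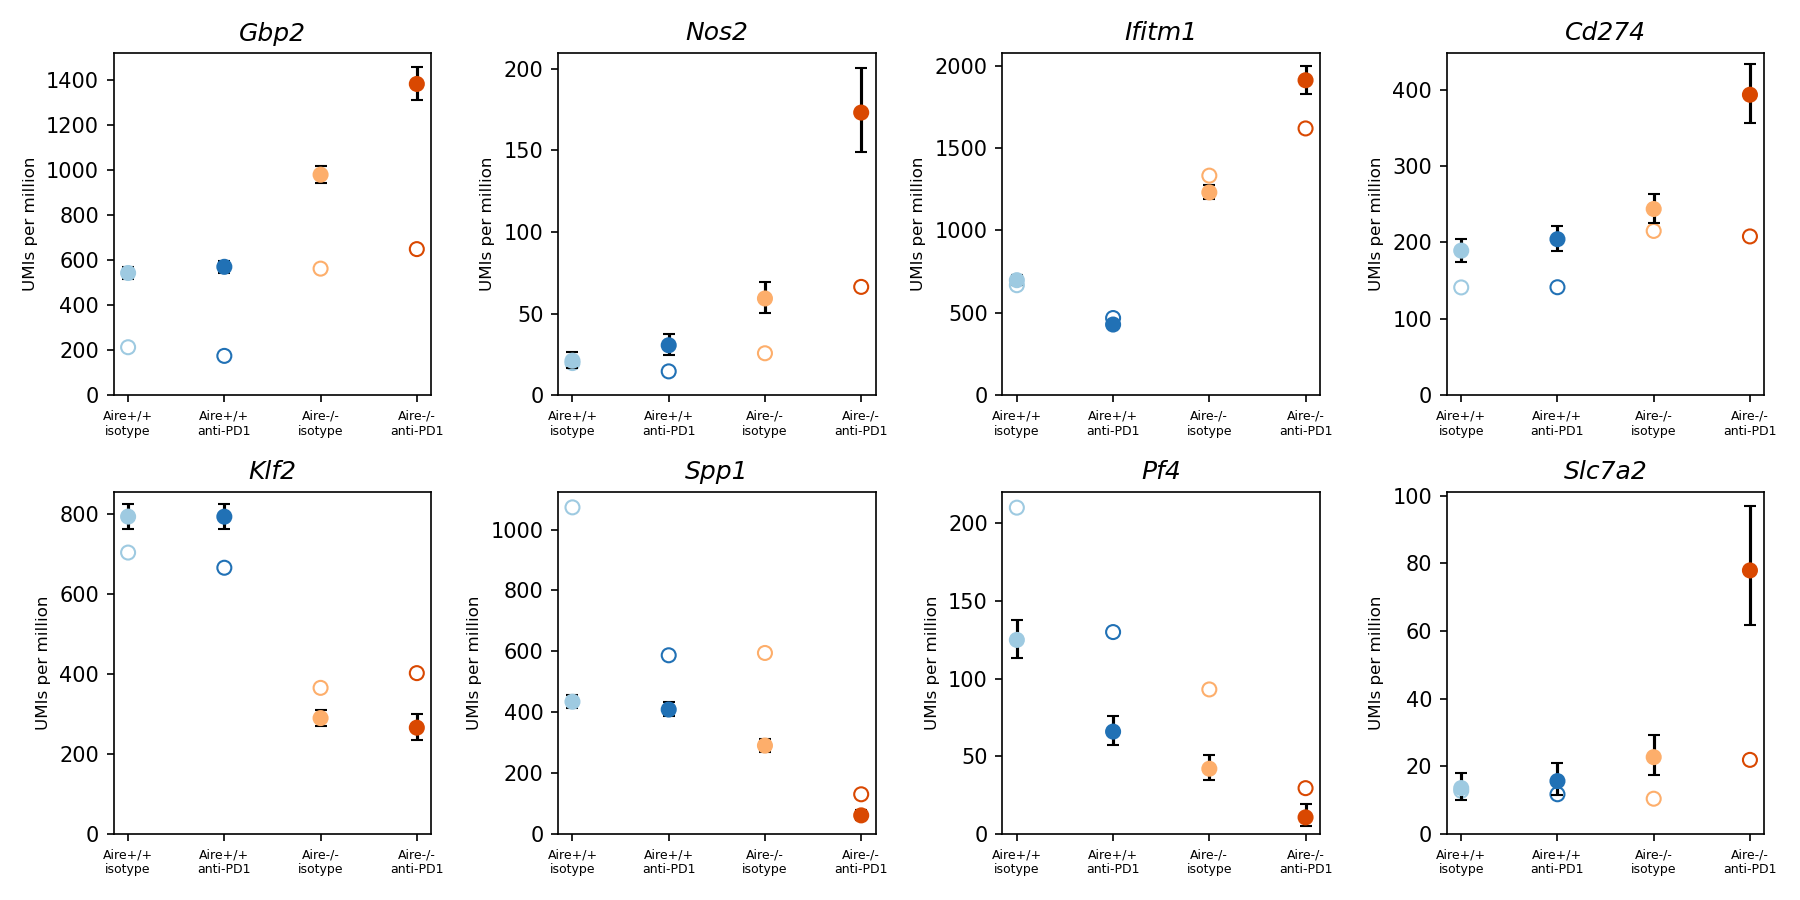
Level of named genes in CPM (UMIs per 1000000) in the 4 libraries, with filled points for Cxcl9-high macrophages (bars are 95% Poisson intervals, counting error only) and open points for other C1q-gated cells. Gbp2 is above the open point in all 4 libraries, and Nos2 is highest in Aire-/- anti-PD1 at 173 CPM.

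**Figure D4:**
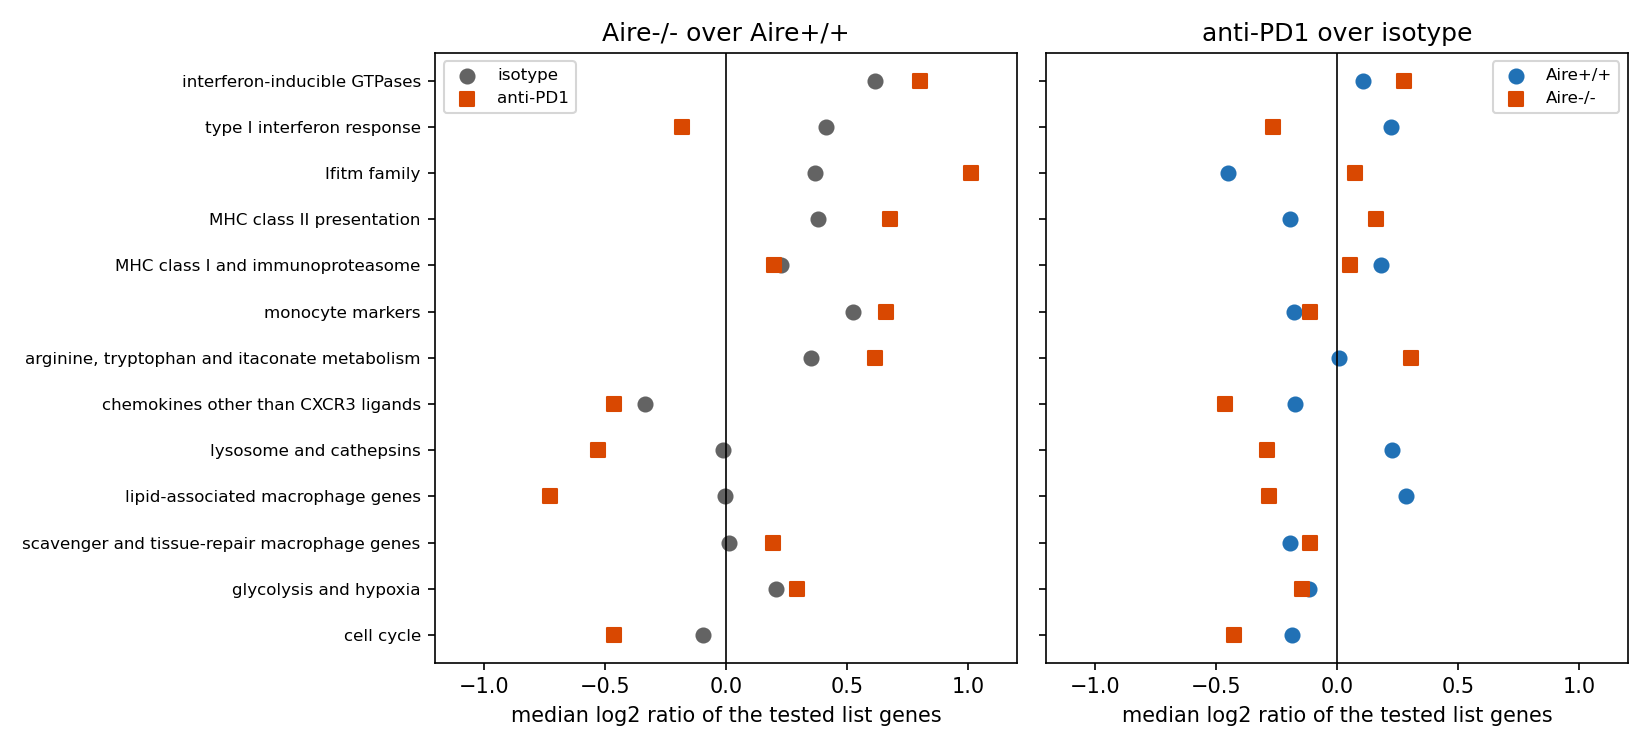
Median log2 ratio of each gene list in Cxcl9-high macrophages, 1 point per contrast between libraries (Aire-/- over Aire+/+ under each treatment, anti-PD1 over isotype in each genotype), with 1 library per condition and no error bar. The GTPase list lies at 0.62 and 0.80 for genotype and at 0.11 and 0.28 for treatment.

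Cxcl9-high macrophages were not uniform. At least 3 UMIs of Nos2 were found in 10, 10, 15 and 18 of them. A UMI of Nos2 was present in 17.1%, 16.8%, 25.9% and 42.0% of cells, or 10.5%, 11.2%, 16.2% and 26.6% after thinning, against 1.51%, 0.587%, 0.599% and 0.373% of thinned Cd3 barcodes. For Spp1 the shares were 57.7%, 42.2%, 41.7% and 14.8%, or 37.8%, 30.2%, 30.1% and 8.86% after thinning, against 14.2%, 9.38%, 11.1% and 12.6%. In Aire-/- anti-PD1 the thinned share with Spp1 lay below that of Cd3 barcodes. Unthinned, the level in Cd3 barcodes was 355, 148, 355 and 311 CPM, above that of Cxcl9-high macrophages in both Aire-/- libraries. What Spp1 in Cd3 barcodes stems from was not tested. At least 5 UMIs of mitotic genes were found in 28, 15, 12 and 3 cells, or 16% (10.9 to 22.3), 8.67% (4.93 to 13.9), 8.63% (4.54 to 14.6) and 3.70% (0.770 to 10.4). Depth was lowest in the last library, and these counts were not thinned. A UMI of PD-L1 was present in 47.7%, 50.3%, 57.4% and 70.9% of cells after thinning, against 29.2%, 28.4%, 31.4% and 27.5% of Cd3 barcodes, and in 73.7%, 77.5%, 82.7% and 85.2% without it.

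Markers of other cell types were read in full, and their part in the differences was not tested. Monocyte markers were all detected, 10 of 10 in every library, led by Ly6c2 in Aire+/+ and Plac8 in Aire-/-, at 2227, 2403, 3396 and 4340.1 CPM. Ly6c2 stood at 860.3, 1161, 1333 and 1714 CPM and Plac8 at 831, 825, 1346 and 1895 CPM. Neutrophil markers were present for 5, 4, 2 and 5 of 8 genes, at 53.0, 36.6, 36.5 and 158 CPM. Csf3r led them in 3 libraries and S100a8 in Aire-/- anti-PD1, while Ngp and Camp were at 0 in all 4. S100a8 stood at 24.1, 0.339, 1.92 and 55.8 CPM and S100a9 at 2.71, 1.70, 0 and 51.0 CPM. Type 1 dendritic markers were present for 8, 7, 8 and 8 of 9 genes, at 239, 203, 330.4 and 365 CPM, led by Naaa. Xcr1, which defines them, had 2, 3, 4 and 7 UMIs, and Clec9a 3, 4, 7 and 3. Type 2 dendritic markers were present for 6, 7, 8 and 8 of 8 genes, at 96.3, 72.6, 113 and 97.2 CPM, led by Tnip3. Mature dendritic markers were present for 8, 8, 9 and 7 of 9 genes, at 75.5, 91.9, 145 and 239 CPM, led by Samsn1 in 3 libraries and by Ccr7 in Aire-/- anti-PD1. Ccr7 was detected in 2, 5, 5 and 1 cells.

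Plasmacytoid dendritic markers were present for 3, 4, 4 and 3 of 6 genes, at 946, 1247, 970.4 and 727 CPM, led by Bst2, which interferon induces in many cells, and the defining gene Siglech was at 0 in every library. T cell markers outside the gate had 9, 7, 8 and 3 UMIs in all, for 4, 4, 6 and 3 of 10 genes, or 2.71, 2.38, 3.08 and 2.89 CPM. No gene of this list held more than 3, 2, 2 and 1 UMIs in turn, and Gzmk was at 0 in all 4 libraries. NK markers outside the gate were present for 4, 4, 6 and 6 of 9 genes, at 72.5, 87.9, 148 and 155 CPM, led by Klrk1 at 67.4, 86.2, 123 and 141 CPM, with Klre1, Klra8 and Eomes at 0. B cell markers were present for 2, 4, 2 and 1 of 6 genes, at 36.7, 35.3, 18.5 and 14.4 CPM, led by Cd79b, with Pax5 at 0. Tumor and stromal markers were present for 7, 7, 8 and 5 of 10 genes, at 12.04, 23.4, 24.6 and 33.7 CPM, led by Pecam1, with the keratins Krt8 and Krt18 at 0 in all 4 libraries.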

How the data were processed

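The authors deposited 10x single-cell counts as tables of UMI counts per gene and barcode, made with the Cell Ranger suite on build GRCm38. The paper gives its version in a passage on TCR libraries, which names another kit than the passage on 3′ libraries. Libraries were grouped by the labels. The 4 tumor CD45+ libraries were used, and tumor CD8+ and spleen libraries only for a check of the rule. The symbol is the start of each gene name, and counts of 1 symbol were summed (24496 symbols). UMIs were summed over the cells of each pool and scaled to 1000000. A gene was called at 2-fold (log2 of 1), with at least 20 UMIs over both pools in each library or 100 UMIs over a pair of libraries, and a side at 0 was set to 3 counts. Intervals are Clopper-Pearson for shares, Poisson for levels and conditional exact for ratios. No test was made, with 1 library per condition. Named are the genes of the rule and the sex genes, the 4 most abundant genes and the extremes of each pathway list, the 20 highest and 15 lowest genes over other C1q-gated cells, the 8 highest and 8 lowest of each contrast, and marker genes of cell types. Also named are Ifitm1, Gbp2, Gbp4, Ifi47, Nos2 and Cxcl9, which the study reports as increased in macrophages of Aire-/- tumors given anti-PD1. Members and lists were chosen with earlier results of these data known. The letters of the motifs were chosen after the levels were seen, and those of the ISRE were shortened by 1 base after a first search. The code was tested on simulated counts. Versions were scanpy 1.11.5, matplotlib 3.10.9, pandas 2.3.3, scipy 1.17.1 and numpy 2.4.6 under Python 3.11.15. Thinning used seed 0.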

Additional observations from a re-analysis of the deposited data

Results flagged for a closer look

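Differences in direction between groups brought these values here, and the differences were not tested. Cxcl13, a B cell chemokine, had a log2 ratio of 6.24 between genotypes with isotype and -4.37 with anti-PD1, and its treatment ratio was 6.05 in Aire+/+ and -4.57 in Aire-/-. These are bounds, with a library at 0 set to 3 counts. It had 0, 176, 178 and 0 UMIs, and 1 cell held 100% of them in Aire+/+ anti-PD1 and 53.9% in Aire-/- isotype. Lipg, a lipase, had genotype ratios of 1.85 with isotype and -2.40 with anti-PD1, and treatment ratios of 2.31 in Aire+/+ and -1.94 in Aire-/-. Mmp12, the macrophage elastase, had genotype ratios of -1.37 with isotype and 1.09 with anti-PD1. Hspa1a, a heat-shock gene, had treatment ratios of 1.39 in Aire+/+ and -1.77 in Aire-/-. Inhba, a subunit of activin A, had treatment ratios of -2.72 in Aire+/+ and 1.42 in Aire-/-, with 32.8%, 25%, 24.6% and 32.8% of its UMIs in 1 cell. As a share of all cells, Cxcl9-high macrophages had a treatment ratio of 1.31 in Aire+/+ and 0.521 in Aire-/-.

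A signal outside the libraries of the comparisons was also found. The same rule selected 0, 2, 4 and 4 barcodes of the tumor CD8+ libraries, of 2688, 2222, 1860 and 2214, in the order used for the CD45+ libraries. In the 8 spleen libraries it selected 0.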

How the results depend on the processing

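No paired analysis was possible because each condition is 1 library. Of 64 share ratios under other settings, 62 stayed inside the main interval and none reversed. With every barcode thinned to 5000 UMIs, the ratio between genotypes with isotype was 2.21 of C1q-gated cells and 1.58 of all cells. Over all settings the ratios of C1q-gated cells ran from 1.68 to 2.21 and from 1.64 to 2.10 between genotypes (isotype, anti-PD1), and from 1.45 to 1.71 and from 1.39 to 1.70 between treatments (Aire+/+, Aire-/-). The count of genes higher than in other C1q-gated cells was 5 with a lower UMI minimum, 1 without barcodes above the 95th percentile of UMIs and 1 without barcodes holding a T cell marker UMI. The count of lower genes was 4 with that lower minimum, 2 as a mean over barcodes, 2 without the highest barcodes, 2 without the top barcode of each gene, 0 without the T marker barcodes, 0 without the Cd3 and NK conditions and 0 against others with 0 Cxcl9 UMIs. Genes changed 2-fold numbered 9, 32, 8 and 13 after thinning and 302, 693, 207 and 432 with the lower minimum, against 72, 173, 32 and 60 (genotype with isotype and anti-PD1, then treatment in Aire+/+ and Aire-/-). Fewer UMIs and more genes tested are built into these settings, and the cause of the other shifts was not tested. Named genes over other C1q-gated cells kept their interval in 1642 cases and moved in 118, and in the contrasts 9432 kept it, 955 moved and 1 reversed. These totals include settings that left all 918 contrast values inside their interval: no cell filter, no Scrublet doublets and the lower UMI minimum. With thinning, 298 contrast values moved and 236 kept their interval, and over other C1q-gated cells 42 moved and 78 kept it. The reversed one is Ccr7 between treatments in Aire-/-, from 1.64 to -4.01 with at least 5 Cxcl9 UMIs, a bound from 0 UMIs. Without the top barcode of each gene some ratios went below 2-fold: Ptgs2 (genotype, isotype) from 1.02 to 0.996, Naaa and Hmox1 (genotype, anti-PD1) from 1.02 to 0.97 and from -1.06 to -0.97, Mir6236 and Bambi (treatment, Aire+/+) from 1.06 to 0.96 and from -1.25 to -0.78, and Hmox1 (treatment, Aire-/-) from -1.79 to -0.58. Among these 6, Bambi and this last ratio became much smaller. Over all genes, those 2-fold higher without the top barcode numbered 30, 46, 18 and 13, against 45, 63, 26 and 17, and those 2-fold lower 23, 133, 8 and 51, against 27, 110, 6 and 43. This setting leaves the UMI totals unchanged, and 1 cell is a larger part of the 81 of Aire-/- anti-PD1 than of the other pools. Ratios with that library on top are therefore lowered by the setting itself. Their median log2 was -0.14 between genotypes with anti-PD1 and -0.13 between treatments in Aire-/-. Of 28, 59, 17 and 24 2-fold calls of named genes, 17, 46, 6 and 15 were still 2-fold, 1, 2, 2 and 1 were below it, and 10, 11, 9 and 8 had too few UMIs left for a value, such as those of Ccr7, Cxcl13, Edn1, Procr, Gdf15 and Pdcd1lg2. Scrublet marked 24 of 9069 cells and did not work as a doublet filter. The settings without the highest barcodes, without T marker barcodes and without the top barcode of each gene were chosen after seeing the data. Depth limits genes of few UMIs most in Aire-/- anti-PD1, with 81 cells.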

Other observations

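Cxcl9 RNA also lay in barcodes with little C1q, and their number relative to Cxcl9-high macrophages differed between conditions. Such barcodes, with at least 3 Cxcl9 UMIs, fewer than 5 C1q UMIs and no Cd3 or NK UMI, were 35.2%, 35.2%, 50.9% and 63.2% of both kinds together. Type 1 dendritic markers stood at 646, 313, 474 and 652 CPM in them, against 239, 203, 330.4 and 365 CPM in Cxcl9-high macrophages. What these barcodes are was not tested.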
